A study of Mus musculus with 55 samples.

Results

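The transcripts of 10 DEAH-box helicase genes were followed through 24 RNA sequencing libraries of mouse oocytes. The genes were Dhx36, Dhx9, Dhx15, Dhx30, Dhx29, Dhx8, Dhx16, Dhx57, Dhx38 and Dhx33. They were taken by gene symbol from a count table of 33924 genes, 16 of which carry a Dhx symbol, and by identical exon coordinates and strand from a second table of 37310 genes. All 10 were found in both tables, and all 10 passed the filter on low counts in every comparison.

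DEAH-box proteins are ATP-driven RNA helicases that pull single strands of RNA out of duplexes, quadruplexes or protein complexes. DHX36, also called RHAU, resolves G-quadruplexes, which are stacked structures of guanine-rich RNA or DNA, and DHX9 unwinds double-stranded RNA and RNA-DNA hybrids. DHX16, DHX38, DHX8 and DHX15 belong to the spliceosome, where, by work done largely in budding yeast, they act in that order on activation, catalysis, release of the spliced RNA and disassembly. DHX29 helps the small ribosomal subunit through structured leaders, DHX30 acts in assembly of the mitochondrial ribosome, and DHX33 acts in ribosomal RNA synthesis in human cells. Oocytes store transcripts during growth and largely stop transcription once fully grown, at the germinal vesicle (GV) stage.

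The libraries came from 4 experiments, each analysed by itself. In the first, 3 libraries labelled Dhx36_sko stood against 3 labelled control, and the collection note names growing oocytes of Dhx36fl/fl;SKO and control mice. The second crossed genotype with DRB, an inhibitor of transcription elongation, in 2 rhau_sko libraries with DRB, 1 c library with DRB, 1 rhau_sko library without it and 2 c libraries without it. The next set 3 GV oocyte libraries after 12 h of cPDS (carboxypyridostatin, a ligand of RNA G-quadruplexes) against 3 GV_C libraries, and the last set 3 Trim21_3h libraries against 3 libraries labelled control, both at 3 h. In Trim-Away, the ubiquitin ligase TRIM21 degrades a protein bound by a delivered antibody, and the headers of that experiment name Dhx36. All libraries are labelled as ovary, oocyte and polyA RNA, and the single collection note stands on every sample, those of the other experiments included. The labels do not expand sko or c, and they do not give the Cre driver, the deleted exons, strain, age, doses, the antibody or the number of oocytes in a library. They do not say whether replicates were separate animals, so p-values measure the spread between these libraries only, which may be technical. The titles give 12 h for the cPDS libraries alone and no time for GV_C. Culture time and cPDS therefore cannot be told apart in that comparison.

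Total counts ran from 23010562 to 65444652 in the first 3 experiments and from 7452742 to 32704737 in the Trim21 experiment. All 10 oocyte markers, such as Zp3 and Gdf9, had counts in all 10 groups. Levels are in CPM, counts per 1000000 counts of a library, TMM-scaled for single genes and on library size alone for sums of markers. The oocyte markers summed to 29110 to 34560 CPM in Dhx36_sko, against 28880 to 30840 CPM in control, with 2 called higher and 3 lower. TMM divides by factors of 1.05 to 1.08 in Dhx36_sko and 0.879 to 0.994 in control. With TMM these sums would be lower in Dhx36_sko and higher in control. In the DRB experiment the sum of oocyte markers was lower with sko, at 7496 and 7786 CPM in rhau_sko with DRB and 9502 CPM without it, against 13680 CPM in c with DRB and 12180 to 13260 CPM without it. There 5 of the 10 were called lower and 0 higher, with a median log2 fold change of -0.41, and the zona pellucida genes Zp1 and Zp3 stood at 0.438 and 0.468 of the c level. The 14 markers of granulosa and cumulus cells, which surround the oocyte, summed to 85.5 to 88.9 CPM in Dhx36_sko libraries, against 23.3 to 26.4 CPM in control libraries. With rhau_sko they summed to 113 to 136 CPM with DRB and to 151 CPM without it, against 67.9 CPM in c with DRB and 70.4 to 83.0 CPM in c without it. Of the 8 markers that could be tested, 4 were called higher with sko in each experiment and 0 lower, Fshr among them, while Ptx3 was at 0 in the Dhx36_sko and control groups. Fshr alone read 35.1 to 38.1 CPM in Dhx36_sko, against 0.283 to 0.443 CPM in control, a large part of the difference in the sums. In rhau_sko without DRB, Amh, Foxl2, Ptx3, Fst and Amhr2 were at 0, and with DRB Amh and Ptx3. In c with DRB, Amh, Foxl2 and Hsd17b1 were at 0, and without it Amh. The 9 markers of immune, endothelial and blood cells summed to 9.35 to 12 CPM in Dhx36_sko, against 11.6 to 13.5 CPM in control, and to 23.6 to 32.9 CPM in the 3 sko libraries of the DRB experiment, against 41.4 to 49.1 CPM in the 3 c libraries. Pecam1 alone held most of each sum, at 7.41 to 7.88 CPM in Dhx36_sko and 10.8 to 12.2 CPM in control. In the DRB experiment Pecam1 read 20.5 to 26.5 CPM in the sko libraries and 39.25 to 46.5 CPM in the c libraries. Of the 4 markers of this list that could be tested, 1 was called higher and 2 lower with sko in growing oocytes, and 1 higher and 3 lower in the DRB experiment. The higher one was in both cases Ptprc, the leukocyte antigen CD45, with 0.988 to 2.28 CPM in Dhx36_sko and 0 CPM in all 3 control libraries (edgeR adjusted p = 7.17e-06). In the DRB experiment Ptprc stood at 1.055 to 5.82 CPM in the sko libraries, against 0.0248 to 0.059 CPM in the c libraries (edgeR adjusted p = 8.34e-05). Emr1, of the same list, was at 0 in all sko libraries of both experiments. It was also at 0 in control and in c with DRB. Over all genes 53.7% were called with sko in growing oocytes and 36% in the DRB experiment, against which the marker calls are to be read. The part of other cell types and of the oocyte markers in the results was not tested, and in RNA of whole samples fewer cells of a type and less RNA per cell cannot be told apart. Another 2 libraries, rhau_sko replicate 6 and c replicate 4 with DRB, held 129192 counts or fewer and were left out. The first of these read 46.9 CPM of Dhx36 from 6 counts, with a 95% Wilson interval of 21.5 to 102.3 CPM for counting error alone, which goes against its sko label. Dhx15, at 78.2 CPM from 10 counts (42.5 to 143.9 CPM), and Dhx9, at 31.3 CPM from 4 counts (12.2 to 80.4 CPM), went with the label. Both intervals lay above the 3 c libraries used, at 25 to 30.1 CPM for Dhx15 and 5.32 to 7.39 CPM for Dhx9. Its values thus point both ways, and the label was not tested.

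The stretches before 4 of the genes are shown because their transcripts moved in both sko experiments, Dhx36 and Dhx29 downwards and Dhx9 and Dhx15 upwards. Each is the 250 bases upstream of the transcription start in RefSeq on GRCm38.p6, written 5′ to 3′ on the strand of the gene. They lie at chr3:62506989-62507238 (minus strand), chr1:153487661-153487910 (minus), chr5:52190547-52190796 (minus) and chr13:112927430-112927679 (plus). Capitals mark GGGCGG or its reverse complement CCGCCC, a GC box.
Dhx36: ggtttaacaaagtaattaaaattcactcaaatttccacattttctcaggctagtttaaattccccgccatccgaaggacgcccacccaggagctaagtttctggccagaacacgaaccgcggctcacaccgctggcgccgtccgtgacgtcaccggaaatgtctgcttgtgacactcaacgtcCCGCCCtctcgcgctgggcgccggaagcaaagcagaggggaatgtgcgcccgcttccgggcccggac
Dhx9: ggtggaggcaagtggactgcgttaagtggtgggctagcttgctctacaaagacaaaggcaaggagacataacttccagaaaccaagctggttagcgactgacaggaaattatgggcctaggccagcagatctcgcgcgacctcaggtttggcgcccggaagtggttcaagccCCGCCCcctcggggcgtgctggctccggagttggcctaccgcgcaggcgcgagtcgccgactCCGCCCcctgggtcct
Dhx15: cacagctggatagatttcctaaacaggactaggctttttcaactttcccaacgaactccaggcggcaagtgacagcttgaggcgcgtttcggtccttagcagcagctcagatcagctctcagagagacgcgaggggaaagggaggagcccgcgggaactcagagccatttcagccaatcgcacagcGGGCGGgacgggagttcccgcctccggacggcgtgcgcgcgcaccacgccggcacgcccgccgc
Dhx29: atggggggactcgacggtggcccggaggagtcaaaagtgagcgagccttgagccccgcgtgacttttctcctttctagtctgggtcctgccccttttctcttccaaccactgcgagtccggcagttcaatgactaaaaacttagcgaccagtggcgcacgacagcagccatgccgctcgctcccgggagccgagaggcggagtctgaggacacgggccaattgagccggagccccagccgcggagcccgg
The GC box was present in the Dhx36, Dhx9 and Dhx15 stretches, in that of Dhx9 at 2 places, and not in that of Dhx29. It was also found for Dhx16 and Dhx33, so for 5 of the 9 members with an entry (all but Dhx38), and it stood in 32.7% of all 32841 RefSeq stretches of this length. The letters CCGGAAG, searched on both strands, were found 2 times for Dhx36 and 1 time each for Dhx9, Dhx16 and 1 of the 2 starts of Dhx30, against 6.91% of all stretches. A quadruplex pattern of 4 runs of at least 3 G with gaps of 1 to 7 bases, searched on both strands, was found for 0 of the 9 members and in 16.7% of all stretches. A CCGCCC match can share its final C bases with a CCGGAAG match, and GGGCGG can supply 1 of the G runs of the quadruplex pattern. These are matches of letters in a fixed window, and no binding was measured here.

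Levels were compared between genes as CPM per kb of exon (RPKM). Dhx57, Dhx29 and Dhx8 had the 3 highest means of the 10 in the control groups of all 4 experiments. In growing control oocytes Dhx57 averaged 10.1 ± 0.70 RPKM, Dhx29 7.74 ± 0.79 RPKM and Dhx8 5.79 ± 0.41 RPKM (SD, n = 3 each), and their ranges did not meet. Dhx36 was number 4 there at 2.00 ± 0.43 RPKM, with a range that overlapped that of Dhx15 at 1.74 ± 0.11 RPKM. Dhx16, Dhx33, Dhx30, Dhx9 and Dhx38 followed, from 1.11 to 0.718 RPKM on average, and neighbours in that order overlapped. In c oocytes without DRB Dhx29 led at 22.9 RPKM, and Dhx8, Dhx36 and Dhx15 lay between 8.66 and 11.0 RPKM, neighbours overlapping. In GV_C oocytes Dhx29 and Dhx57 overlapped, at 21.9 ± 0.82 and 21.8 ± 1.1 RPKM, and Dhx36 was number 5 at 4.89 ± 0.30 RPKM (SD, n = 3 each). In the Trim21 experiment's controls Dhx36 was number 4 again, at 6.94 ± 0.30 RPKM (SD, n = 3). Dhx33 had the lowest mean in all of these except the growing controls, overlapping Dhx9 in c without DRB and in the Trim21 experiment's controls. Levels were scaled within an experiment, so they are set side by side and not tested between experiments.

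**Figure D1:**
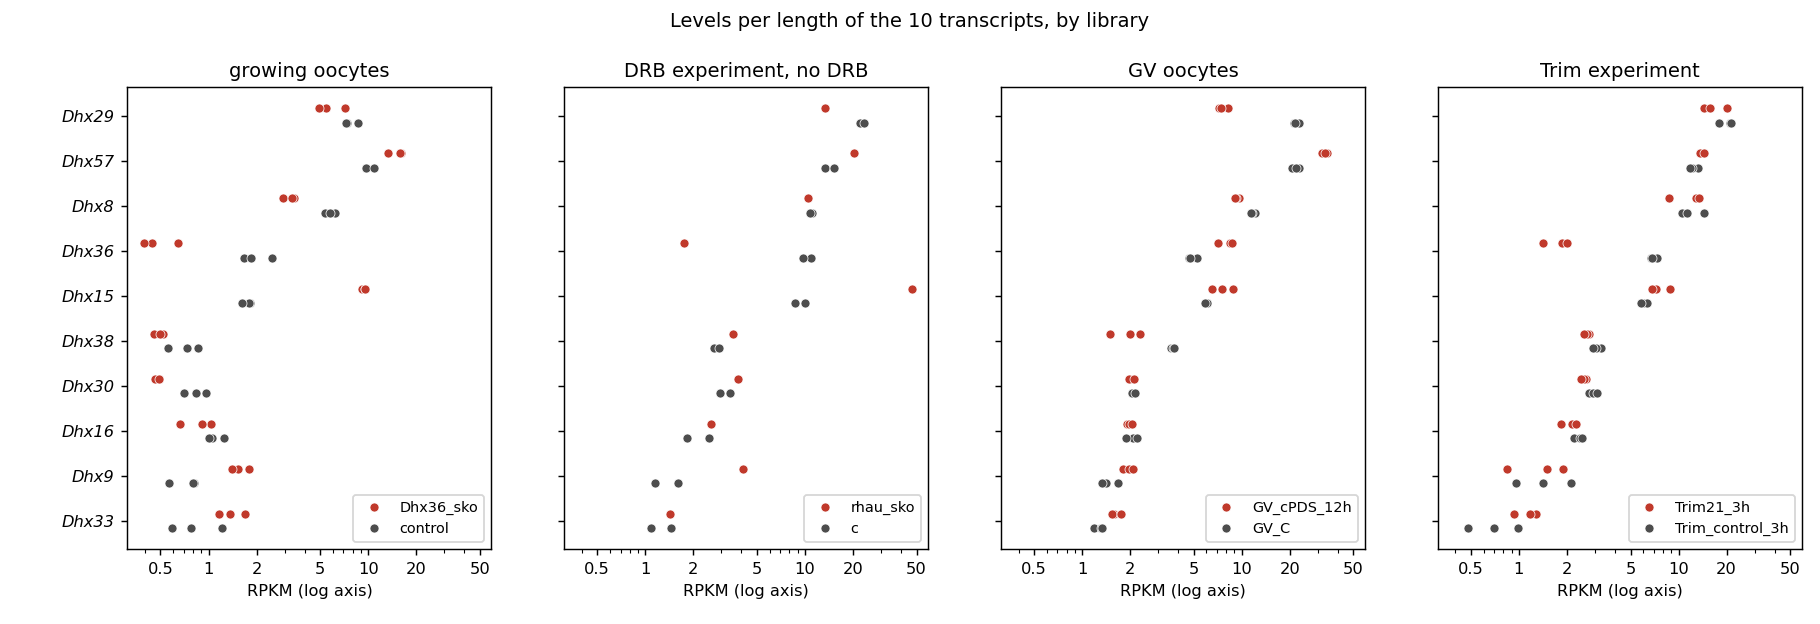
Level per length of each transcript, in RPKM on a log axis, with 1 point per library, for the sko or treated libraries (red, upper row of each gene) and their controls (grey, lower row) in 4 panels, the DRB experiment without its DRB libraries. Dhx57, Dhx29 and Dhx8 have the highest means in the controls of each panel, Dhx36 stands left of its controls in the sko and Trim21 panels and right of them after cPDS, and Dhx15 stands furthest right in rhau_sko.

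In growing oocytes, 8 of the 10 transcripts differed between Dhx36_sko and control at an adjusted p under 0.05 (quasi-likelihood test of edgeR, Benjamini-Hochberg over all 14081 genes tested). Of these 8, 4 were higher and 4 lower. Across all genes 53.7% were called, 28.5% higher and 25.2% lower, so the count is to be read against a background in which most genes passed. With scaling by library size alone 4825 genes were higher and 2386 lower, against 4017 and 3549 with TMM, and 4 members were called higher and 3 lower. The median log2 fold change was -0.38 over the members and 0.02 over all genes, and 3 members were called with a change of at least 2-fold, Dhx36 downwards and Dhx9 and Dhx15 upwards. The share of all genes called at 2-fold was not counted. Their median absolute log2 fold change was 0.617, so large changes were common.

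Dhx36 itself, the targeted gene, lies on the minus strand of chr3:62273961-62310926 (mm9), with 4389 exonic bases. It stood at 2.83, 1.95 and 1.73 CPM in the Dhx36_sko libraries, from 106, 75 and 66 counts, against 7.34, 8.06 and 10.9 CPM in the control libraries. Every Dhx36_sko library lay below every control library, and counts remained in all 3. The log2 fold change was -2.01 ± 0.24 (SE; edgeR adjusted p = 4.24e-06), or 0.248 of the control level. Counts cover the whole gene, so what remains cannot be split into deleted and kept exons. In order of level per length Dhx36 was among the last 3 of the 10 in Dhx36_sko, where its range overlapped those of Dhx38 and Dhx30, and number 4 in control.

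Dhx9, the double-strand helicase, had 7.04, 6.50 and 8.28 CPM in Dhx36_sko libraries, against 3.74, 2.60 and 3.68 CPM in control libraries. The groups did not overlap, and the log2 fold change was 1.12 ± 0.21 (SE; edgeR adjusted p = 0.000356).

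Among the spliceosomal helicases, Dhx15 moved most, and upwards. It read 27.7, 28.7 and 28.9 CPM in Dhx36_sko libraries, against 5.48, 5.39 and 4.87 CPM in control libraries. The 3 libraries of each group lay close together and far from the other group, a 5.42-fold difference (log2 fold change 2.44 ± 0.15 SE, edgeR adjusted p = 2.53e-09). Dhx15 held 23.9 to 24.7% of the summed RPKM of the 10 transcripts in Dhx36_sko, against 4.68 to 6.14% in control. Dhx8, which releases the spliced RNA, moved the other way, with 17.4, 14.7 and 16.7 CPM in Dhx36_sko libraries, against 27.0, 31.2 and 29.2 CPM in control libraries. These groups were also apart, at a log2 fold change of -0.84 ± 0.14 (SE; edgeR adjusted p = 8.23e-05). For Dhx16, which acts in activation, the libraries overlapped, at 4.27, 2.70 and 3.72 CPM in Dhx36_sko and 4.29, 4.13 and 5.15 CPM in control. Dhx38, which acts at the catalytic step, read 1.92, 2.18 and 2.07 CPM in Dhx36_sko, against 2.33, 3.10 and 3.61 CPM in control. Its groups did not overlap, but neither Dhx16 (log2 fold change -0.34, edgeR adjusted p = 0.223) nor Dhx38 (-0.55, edgeR adjusted p = 0.093) passed the test.

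The other called transcripts were those of Dhx30, Dhx29, Dhx33 and Dhx57. Dhx30, of the mitochondrial ribosome, had 4.78, 4.52 and 4.79 CPM in Dhx36_sko libraries, against 6.87, 8.22 and 9.39 CPM in control libraries. The groups were apart (log2 fold change -0.80 ± 0.19 SE, edgeR adjusted p = 0.00211). Dhx29, of translation initiation, had 31.5, 23.9 and 21.6 CPM in Dhx36_sko, against 32.3, 31.8 and 38.1 CPM in control. Its highest Dhx36_sko library came within a CPM of the lowest control, and the log2 fold change of -0.41 ± 0.15 (SE; edgeR adjusted p = 0.0322) lost its call with scaling by library size alone (-0.23, adjusted p = 0.269). It also lost it without control replicate 3, Dhx36_sko replicate 5 or Dhx36_sko replicate 6, at adjusted p from 0.0797 to 0.159. Dhx57 rose, with 67.3, 81.6 and 80.1 CPM in Dhx36_sko libraries and 49.5, 49.1 and 55.5 CPM in control libraries. All Dhx36_sko libraries lay above the controls (log2 fold change 0.57 ± 0.13 SE, edgeR adjusted p = 0.00117). Dhx33, of ribosomal RNA synthesis, read 7.36, 6.27 and 9.14 CPM in Dhx36_sko and 3.21, 4.20 and 6.60 CPM in control. The lowest Dhx36_sko library lay below the highest control, and the log2 fold change of 0.70 ± 0.25 (SE; edgeR adjusted p = 0.0244) lost its call when control replicate 1 or 2 or Dhx36_sko replicate 4 or 6 was left out, at adjusted p from 0.0573 to 0.112.

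**Figure D2:**
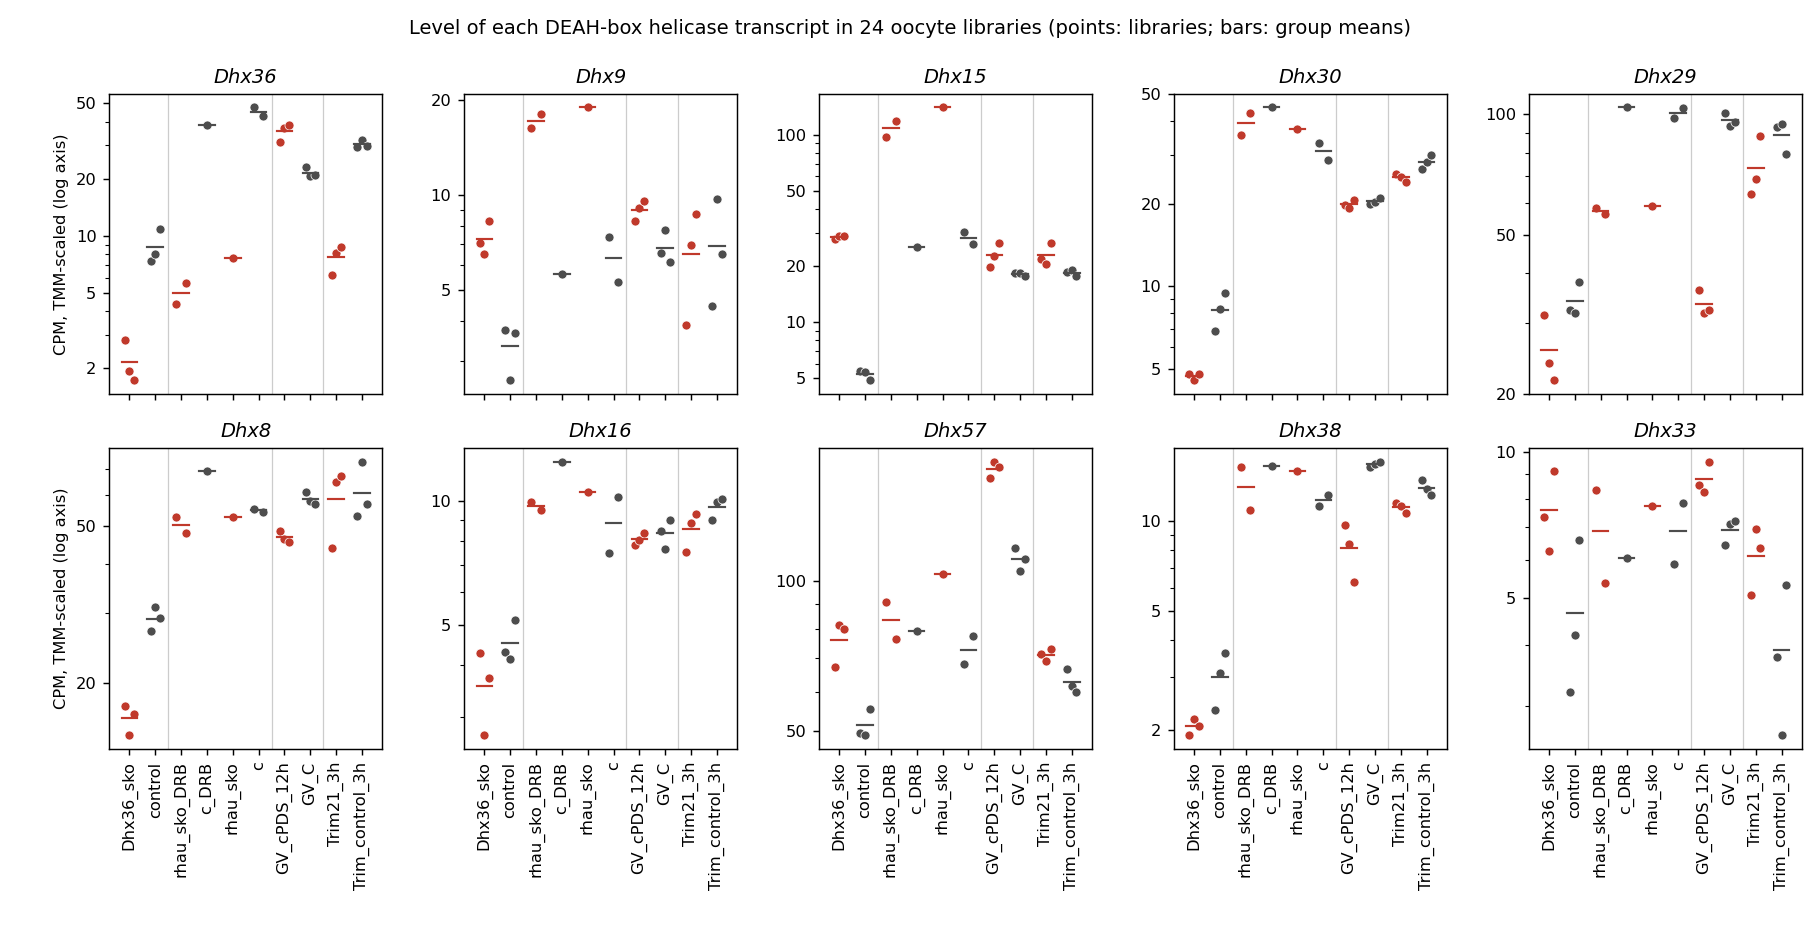
Level of each transcript in CPM (log axis, scaled by TMM within an experiment) in each of the 24 libraries, with points for libraries and bars for group means, sko and treated groups in red and their controls in grey. Dhx15 and Dhx9 stand higher and Dhx36 and Dhx29 lower in the sko groups of both the growing and the DRB experiment.

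In the DRB experiment, which shares no library with the growing one, sko was compared with c over 6 libraries with DRB as a covariate. Of the 10 members 4 were called, 2 higher and 2 lower, where 36% of 16784 genes were called, 19.2% higher and 16.8% lower. The median log2 fold change was 0.06 over the members and 0.01 over all genes. The 4 were Dhx36, Dhx9, Dhx15 and Dhx29, and each was also called in growing oocytes in the same direction, which is 50% of the members' calls there and 100% of them here. Over the 13839 genes tested in both experiments, the calls shared in direction were 50.3% of those in growing oocytes and 68.3% of those in the DRB experiment.

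Dhx36 read 4.37 and 5.67 CPM in rhau_sko with DRB and 7.69 CPM in rhau_sko without it, against 38.3 CPM in c with DRB and 47.6 and 42.8 CPM in c without it. The single rhau_sko library without DRB had a 95% Wilson interval of 6.78 to 8.72 CPM, and the single c library with DRB one of 36.3 to 40.5 CPM, for counting error alone. All 3 sko libraries lay far below all 3 c libraries. The log2 fold change was -2.72 ± 0.17 (SE; edgeR adjusted p = 2.12e-06). By level per length Dhx36 had the lowest mean of the 10 in rhau_sko with DRB, overlapping Dhx33, and was number 9 in the single rhau_sko library without it, against number 4 in both c groups, where in c without DRB it overlapped Dhx8 and Dhx15.

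Dhx9 read 16.3 and 18.1 CPM in rhau_sko with DRB and 19.0 CPM without it, against 5.63 CPM in c with DRB and 7.39 and 5.32 CPM without it. The 3 sko libraries were above all c libraries, at a log2 fold change of 1.61 ± 0.20 (SE; edgeR adjusted p = 0.000172). Dhx15 read 97.8 and 119 CPM in rhau_sko with DRB and 140.2 CPM without it, against 25 CPM in c with DRB and 30.1 and 26.1 CPM without it. This was the highest level per length of the 10 in both rhau_sko groups, against number 5 in both c groups, and the log2 fold change was 2.24 ± 0.13 (SE; edgeR adjusted p = 1.5e-06). Dhx29 read 58.4 and 56.2 CPM in rhau_sko with DRB and 58.9 CPM without it, against 104 CPM in c with DRB and 97.7 and 104 CPM without it. The sko libraries lay within 3 CPM of each other and all below the c libraries (log2 fold change -0.80 ± 0.11 SE, edgeR adjusted p = 0.000324).

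For the remaining 6 the test was not passed, with edgeR adjusted p from 0.0995 for Dhx57 to 0.909 for Dhx16. Dhx8 read 52.9 and 48.2 CPM in rhau_sko with DRB and 52.7 CPM without it, against 69.0 CPM in c with DRB and 55.5 and 54.3 CPM without it. The sko libraries were lower than the c libraries with no overlap, and the interval of 2 SE around the log2 fold change ran from -0.49 to 0.02. Dhx30 overlapped between the genotypes, at 35.6 and 42.7 CPM in rhau_sko with DRB and 37.4 CPM without it, against 44.9 CPM in c with DRB and 33.3 and 28.7 CPM without it. Its log2 fold change was 0.05, with an interval of 2 SE from -0.25 to 0.36. Dhx57, Dhx33, Dhx38 and Dhx16 also overlapped, with log2 fold changes of 0.31, 0.20, 0.07 and -0.04. The sko change was also taken with DRB alone (2 rhau_sko libraries against 1 c) and without DRB alone (1 rhau_sko library against 2 c), from 1 fit with a term per group over the same 6 libraries. Each of these has an arm of 1 library, which is assumed to vary like the others, and the spread comes from the 6 libraries together, so they are no independent repeat. The same 4 members were called in the same directions in each, where 22.4% of 18178 genes were called with DRB and 20.8% without it.

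Whether the sko change differed between the growing and the DRB experiment was tested as an interaction over all 12 libraries. A single member, Dhx30, was called, where 12.5% of 17437 genes were, 7.63% higher and 4.91% lower in the growing experiment. Its change was lower in growing oocytes than in the DRB experiment, with a difference of -0.82 ± 0.23 in log2 fold change (SE; edgeR adjusted p = 0.0265). Of the 10 oocyte markers 7 were called in the same test, all higher in the growing experiment. The difference for Dhx8 was -0.57 (edgeR adjusted p = 0.0557) and that for Dhx36 was 0.74 (adjusted p = 0.117), neither called. For Dhx15, the member that rose most in both, the difference was 0.23 with an interval of 2 SE from -0.15 to 0.61. The Dhx30 call was lost with scaling by library size alone (-0.65, adjusted p = 0.1) and without c replicate 1, c replicate 2 or rhau_sko replicate 5, at adjusted p from 0.0503 to 0.28. Over all genes the split was 1330 higher and 857 lower, against 1915 and 402 with library size alone and 1369 and 1629 with DESeq2.

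**Figure D3:**
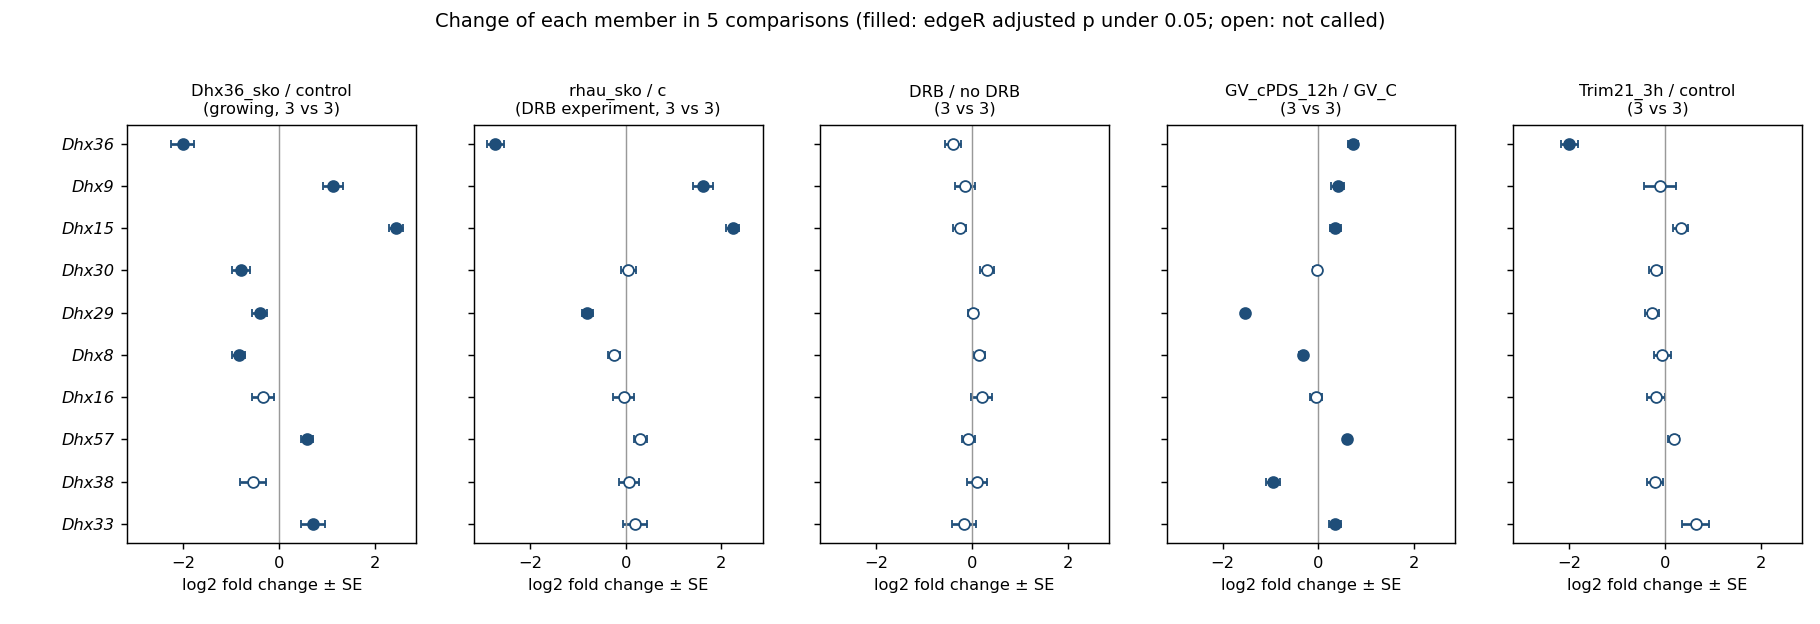
Log2 fold change (points) with its SE (bars) for each of the 10 transcripts in 5 comparisons, filled where edgeR's adjusted p is under 0.05. Filled points number 8 for sko in growing oocytes, 4 for sko in the DRB experiment, 0 for DRB, 8 for cPDS and 1 for Trim21.

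DRB was compared with no DRB in the same 6 libraries, with genotype as a covariate, so this comparison shares its libraries with the one on sko. None of the 10 members was called by edgeR (0 of 10), where 0.0119% of 16784 genes were, that is 2 genes, while 2099 genes had an unadjusted p under 0.05 and DESeq2 called 541 genes and 0 members. Among the members, Dhx36 alone had an unadjusted p under 0.05, at a log2 fold change of -0.40 (edgeR adjusted p = 0.362). The values given above show its libraries with DRB below those of the same genotype without it, in rhau_sko and in c. Dhx30 had the largest upward value, 0.31 with an interval of 2 SE from 0.01 to 0.62, and an adjusted p of 0.427. A difference in the DRB change between rhau_sko and c was called by edgeR for 0 of the 10, where 0.033% of 18178 genes were called and 1493 had an unadjusted p under 0.05, and DESeq2 called 57 genes and 0 members.

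In GV oocytes, 8 of the 10 transcripts differed between cPDS and GV_C libraries, 5 higher and 3 lower with cPDS. Across all 16115 genes 50.8% were called, 23.4% higher and 27.4% lower, and the median log2 fold change was 0.16 over the members and 0.01 over all genes. The only member called with a change of at least 2-fold was Dhx29, downwards. The share of all genes called at 2-fold was not counted, and their median absolute log2 fold change was 0.434. Without GV_C replicate 3 or without cPDS replicate 3, 5 of the members were called, with Dhx9, Dhx15 and Dhx33 lost. The share of all genes called in those fits is not given here, so the drop cannot be set against it. Granulosa and cumulus markers summed to 89.6 to 103 CPM after cPDS, against 110.9 to 114 CPM in GV_C, and 9 immune, endothelial and blood markers to 16.8 to 17.2 CPM after cPDS, against 57.4 to 60.8 CPM in GV_C, a list in which Pecam1 was the single called gene. Oocyte markers summed to 23920 to 27830 CPM after cPDS, against 18290 to 22160 CPM in GV_C, with 5 called higher and 3 lower. Their part in the results was not tested.

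Dhx36 had 31.3, 36.9 and 38.3 CPM in cPDS libraries, against 23.0, 20.6 and 20.9 CPM in GV_C libraries. All cPDS libraries were above all GV_C libraries, and the log2 fold change was 0.73 ± 0.099 (SE; edgeR adjusted p = 1.82e-05). Dhx9 also rose, with 8.29, 9.09 and 9.56 CPM in cPDS libraries and 6.56, 7.75 and 6.15 CPM in GV_C libraries. Its groups came close without overlap (log2 fold change 0.40 ± 0.13 SE, edgeR adjusted p = 0.0207), and the call was lost without GV_C replicate 1 or 3 or cPDS replicate 3, at adjusted p from 0.0658 to 0.105.

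Of the spliceosomal members, Dhx38 had 9.72, 8.41 and 6.27 CPM in cPDS libraries, against 15.2, 15.6 and 15.8 CPM in GV_C libraries. It fell to about 0.52 of the GV_C level, with no overlap (log2 fold change -0.94 ± 0.14 SE, edgeR adjusted p = 4.83e-05). Dhx8 had 48.7, 46.4 and 45.8 CPM in cPDS libraries, against 61.2, 58.0 and 57.1 CPM in GV_C libraries. This was a smaller fall, with the groups apart (log2 fold change -0.32 ± 0.076 SE, edgeR adjusted p = 0.00224). Dhx15 had 19.7, 22.6 and 26.5 CPM in cPDS libraries, against 18.2, 18.2 and 17.6 CPM in GV_C libraries. The cPDS libraries spread widely above a narrow GV_C group, and the log2 fold change of 0.35 ± 0.11 (SE; edgeR adjusted p = 0.0154) lost its call without GV_C replicate 3 or cPDS replicate 3, at adjusted p of 0.0594 and 0.108. Dhx16 overlapped, at 7.81, 8.02 and 8.38 CPM in cPDS libraries and 8.47, 7.67 and 9.0 CPM in GV_C libraries. Its log2 fold change of -0.05 had an interval of 2 SE from -0.30 to 0.19 (edgeR adjusted p = 0.751).

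Dhx29 changed most, with 36.3, 31.8 and 32.4 CPM in cPDS libraries, against 101, 93.7 and 95.6 CPM in GV_C libraries. The groups lay far apart (log2 fold change -1.53 ± 0.080 SE, edgeR adjusted p = 4.5e-10), and Dhx29 after cPDS stood at 7.61 RPKM, where its range overlapped those of Dhx15 and Dhx36, below Dhx57 and Dhx8, while in GV_C it shared the top with Dhx57. Dhx57 had 161, 173 and 169 CPM in cPDS libraries, against 116, 105 and 111 CPM in GV_C libraries. It rose without overlap (log2 fold change 0.60 ± 0.069 SE, edgeR adjusted p = 3.05e-06) and held 43.4 to 45.0% of the summed RPKM of the 10 after cPDS, against 27.6 to 28.8% in GV_C. Dhx30 overlapped, at 19.8, 19.3 and 20.7 CPM in cPDS libraries and 19.99, 20.2 and 20.9 CPM in GV_C libraries. Its interval of 2 SE ran from -0.22 to 0.15 on the log2 scale. Dhx33 had 8.55, 8.29 and 9.54 CPM in cPDS libraries, against 6.44, 7.12 and 7.19 CPM in GV_C libraries. The groups were apart, but the log2 fold change of 0.35 ± 0.13 (SE; edgeR adjusted p = 0.0289) lost its call without the filter on low counts, at adjusted p = 0.0559, and without GV_C replicate 1 or 3 or cPDS replicate 3, at adjusted p from 0.0605 to 0.119.

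In the Trim21 experiment, Dhx36 was the only one of the 10 transcripts called, where 11.5% of 14191 genes were, 6.26% higher and 5.23% lower. It had 6.23, 8.16 and 8.76 CPM in Trim21 libraries, from 199, 61 and 202 counts, against 29.6, 32.0 and 29.8 CPM in control libraries. Every Trim21 library lay below every control library, at a log2 fold change of -1.99 ± 0.18 (SE; edgeR adjusted p = 1.43e-05). The measurement is of transcript, and protein was not measured here. By level per length Dhx36 stood at 1.76 RPKM in Trim21 libraries, overlapping Dhx16 and Dhx9, against number 4 in their controls. Granulosa and cumulus markers summed to 68.4 to 75.7 CPM in Trim21 libraries, against 47.5 to 49.1 CPM in controls, with Cyp19a1 called higher, Amh and Foxl2 at 0 in both groups, and their part was not tested.

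The median log2 fold change with Trim21 was -0.14 over the members and -0.01 over all genes. Dhx33 had the largest upward value, with 5.07, 6.96 and 6.33 CPM in Trim21 libraries, against 3.78, 2.61 and 5.33 CPM in control libraries. The groups overlapped, and the log2 fold change of 0.64 had an interval of 2 SE from 0.06 to 1.22 (edgeR adjusted p = 0.196). Dhx15 had 21.7, 20.5 and 26.6 CPM in Trim21 libraries, against 18.4, 19.0 and 17.5 CPM in control libraries. These groups were apart, but at 0.33 the log2 fold change did not pass (edgeR adjusted p = 0.221). Dhx9, higher in both sko experiments, had 3.88, 6.96 and 8.72 CPM in Trim21 libraries, against 4.45, 9.75 and 6.52 CPM in control libraries. The spread within each group was wider than the gap between them, and the interval of 2 SE, from -0.78 to 0.58, takes in changes of either sign. Dhx29 had 63.3, 68.9 and 88.1 CPM in Trim21 libraries, against 93.1, 94.3 and 79.5 CPM in control libraries, with overlap and a log2 fold change of -0.28 (edgeR adjusted p = 0.261). The other 5, Dhx8, Dhx16, Dhx30, Dhx38 and Dhx57, had log2 fold changes between -0.21 and 0.18 and edgeR adjusted p from 0.362 to 0.881. At 7452742 counts, Trim21 replicate 2 was the shallowest library used.

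Across the comparisons, Dhx36 fell in both sko experiments and with Trim21 and rose with cPDS. Dhx15 and Dhx9 were called higher in both sko experiments and with cPDS, and Dhx29 was called lower in the same 3. Dhx57 was called higher in growing sko oocytes and with cPDS, and Dhx8 was called lower in both. Dhx33 was called higher in growing sko oocytes and with cPDS, Dhx38 lower with cPDS alone of the 5 comparisons, and Dhx30 lower in growing sko oocytes alone. Dhx16 was called in 0 of the 5, with edgeR adjusted p from 0.223 to 0.909. Shared calls are to be read against the shares of all genes called. These were 53.7% for sko in growing oocytes, 36% for sko in the DRB experiment and 50.8% with cPDS. The calls of Dhx9 and Dhx15 with cPDS, of Dhx29 in growing sko oocytes and both of Dhx33 did not hold under every alternative.

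The profile of Dhx36 over the 18 deep libraries of the larger table was compared with that of 9125 genes with a mean of at least 2 on the log2 CPM scale, each centred on its own mean. The nearest were Socs5, with a root mean square difference of 0.406 on the log2 scale, Tmod2 with 0.414 and BC013529 with 0.482. Socs5 read 0.909 to 1.34 CPM in Dhx36_sko, against 6.24 to 6.74 CPM in control, and 9.94 to 11.5 CPM after cPDS, against 6.44 to 9.46 CPM in GV_C. It shared with Dhx36 the low sko levels and the higher levels after cPDS, in each case without overlap. Tmod2 read 1.29 to 2.00 CPM in Dhx36_sko, against 11.6 to 13.6 CPM in control, but 18.5 to 19.6 CPM after cPDS, against 18.8 to 20.8 CPM in GV_C, where the groups overlapped. The other members were farther, from a difference of 1.09 for Dhx8, number 1174 of the 9125 in order of nearness, up to 2.19 for Dhx15, number 8735. The CPM of Socs5 and Tmod2 given here were scaled by TMM over the 18 libraries together, not within an experiment. Socs5, Tmod2 and BC013529 were picked for likeness to Dhx36 over these same libraries, so their shared pattern follows largely from the choice. These are descriptions over libraries that share experiments and scaling.

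**Figure D4:**
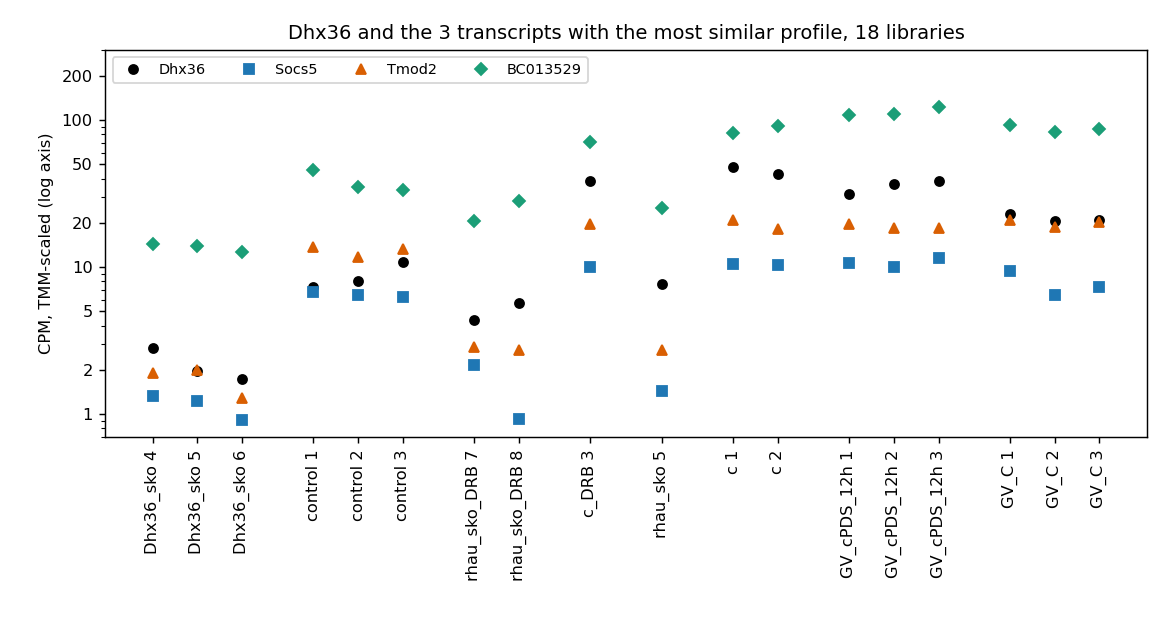
Level in CPM (log axis) of Dhx36 and the 3 transcripts with the nearest profile in the 18 deep libraries of the larger table, 1 point per gene and library. Dhx36 is scaled by TMM within an experiment, and the 3 other transcripts by TMM over the 18 libraries together. All 4 stand lower in the 6 sko libraries than in the control and c libraries of the same experiment.

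The rest of the family and its partners were counted in lists. All list counts are to be read against the shares of all genes called. These were 53.7% for sko in growing oocytes, 36% for sko in the DRB experiment, 50.8% with cPDS and 11.5% with Trim21. Of 8 other DEAH/RHA genes, 2 of the 6 tested were called higher in growing sko oocytes and 0 lower. They were Dhx32, with 43.6 to 54.2 CPM in Dhx36_sko, against 18 to 24.6 CPM in control (log2 fold change 1.12, edgeR adjusted p = 1.12e-05), and Tdrd9, a helicase of the piRNA pathway in the mouse germ line (0.84, edgeR adjusted p = 0.000244). In the DRB experiment the same 2 genes were called higher with sko, at 0.70 and 1.07, and 2 others lower, Dhx35 at -1.45 and Dhx40 at -0.51, of 7 tested. After cPDS both Dhx32 (-0.76) and Tdrd9 (-0.83) were called lower and Dhx34 higher (0.58), of 7 tested. With Trim21 the single call of 7 was Ythdc2, a reader of RNA methylation needed for mouse meiosis, at 0.88 (edgeR adjusted p = 0.0181).

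Of 20 partners of DEAH helicases, mostly G-patch proteins that stimulate them, 19 were tested in growing sko oocytes, with 4 called higher and 6 lower and a median log2 fold change of -0.16. The strongest by p were the splicing regulator Rbm5, with 30.9 to 35.6 CPM in Dhx36_sko, against 8.36 to 10.2 CPM in control (1.84, edgeR adjusted p = 3.94e-08), and Aggf1 (1.22, edgeR adjusted p = 9.67e-06). In the DRB experiment 2 were called higher and 1 lower of 20, Pinx1 at 0.59 and Nkrf at -1.04 among them, and Rbm5 overlapped there, with 34.6 to 39.8 CPM in the sko libraries and 37.0 to 53.4 CPM in the c libraries. The sko change of Rbm5 differed between the experiments by 2.00 (edgeR adjusted p = 4.69e-06). After cPDS, 16 of 20 partners were called lower and 1 higher, where 27.4% of all genes were called lower, and their median was -0.78. Rbm17, a splicing factor, read 22.6 to 38.5 CPM after cPDS, against 266 to 285 CPM in GV_C (-3.17, edgeR adjusted p = 7.1e-11). Sugp1, a splicing factor that activates DHX15 in human cells, read 1.90 to 1.99 CPM after cPDS, against 9.66 to 11.9 CPM in GV_C (-2.49, edgeR adjusted p = 1.91e-09). Both stood far below every GV_C library. With Trim21, 1 partner of 19 was called higher, Aggf1 at 1.02, and 1 lower, Pinx1 at -0.42.

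A list of 38 genes was taken by the symbol Ddx, used mostly for the sister family of DEAD-box helicases. It also holds genes outside that family, such as Ddx11. Of these 38, 35 were tested in growing sko oocytes, with 6 called higher and 12 lower and a median of -0.06. Over all genes 28.5% were called higher there and 25.2% lower. Ddx6, a repressor of stored transcripts, read 53.9 to 70.9 CPM in Dhx36_sko, against 12.6 to 17.1 CPM in control (2.14, edgeR adjusted p = 1.86e-08), and Ddx4, the germ cell helicase Vasa, rose by 1.82 (edgeR adjusted p = 1.27e-07). In the DRB experiment 6 of 37 were called higher with sko and 7 lower, and Ddx6 read 287 to 430.0 CPM in the 3 sko libraries, against 24.97 to 30.1 CPM in the 3 c libraries (3.64, edgeR adjusted p = 4.78e-07). Ddx4 was not called there (0.35, edgeR adjusted p = 0.0507). The sko change differed between the experiments for both, by 1.5 for Ddx4 (edgeR adjusted p = 0.000156) and by -1.48 for Ddx6 (edgeR adjusted p = 0.000304). After cPDS 22 of 35 were called lower and 4 higher, with a median of -0.53. Ddx3x read 162 to 166 CPM after cPDS, against 393 to 415 CPM in GV_C (-1.30, edgeR adjusted p = 1.36e-10), and Ddx42 fell by 2.16 on the log2 scale (edgeR adjusted p = 2.23e-10). With Trim21, 1 of 35 was called higher and 4 lower, Ddx4 at -1.45 and Ddx11 at -0.93 among them. With DRB, 0 genes of the 3 lists were called.

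**Figure D5:**
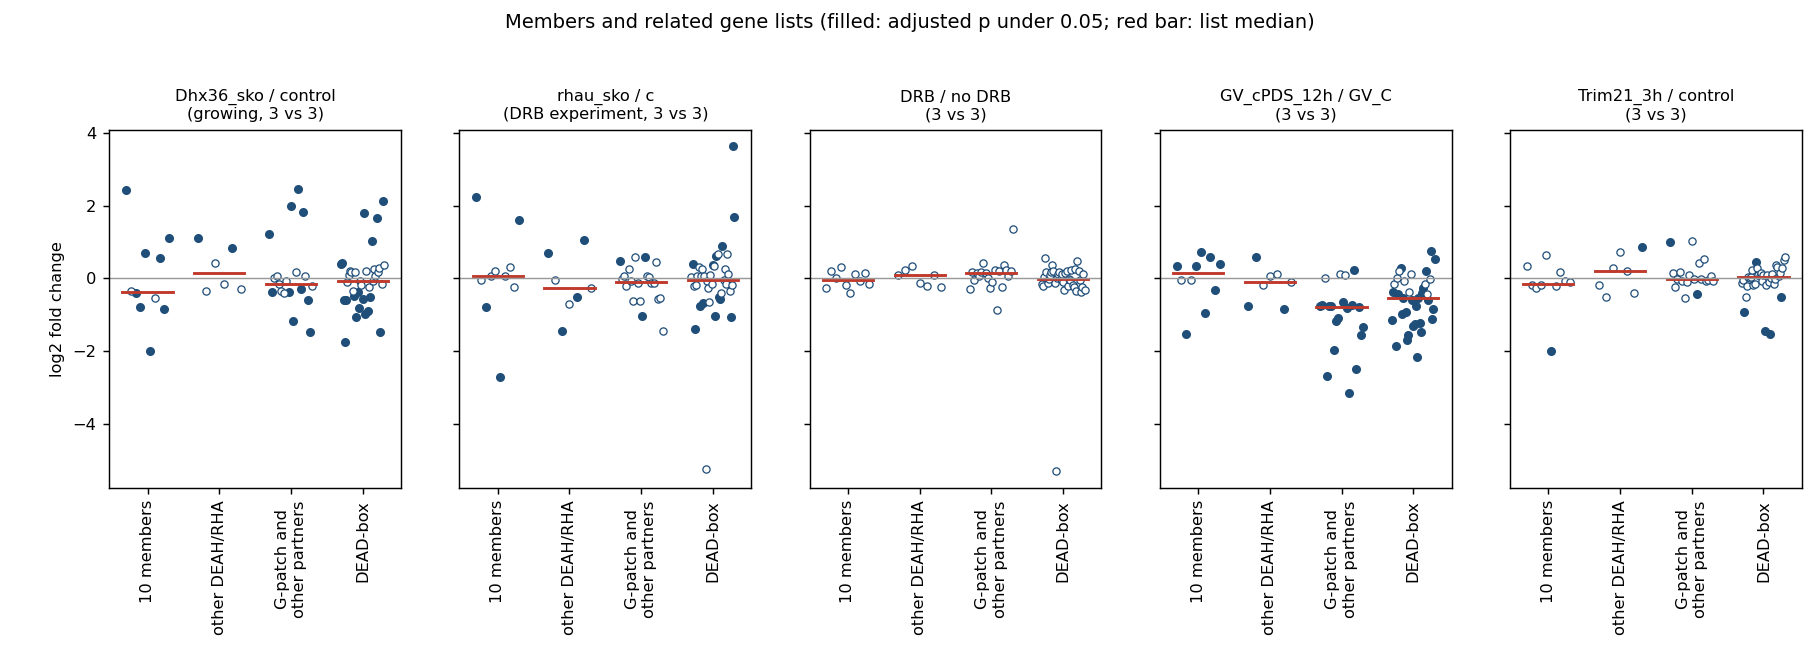
Log2 fold change of the 10 members and of 3 related gene lists in 5 comparisons, with filled points for an edgeR adjusted p under 0.05 and a red bar at each list's median. After cPDS the medians stood at 0.16 for the members, -0.11 for the other DEAH/RHA genes, -0.78 for the partners and -0.53 for the genes with a Ddx symbol, labelled DEAD-box.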

How the data were processed

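Gene counts were deposited for 26 libraries among the 55 samples given here, and 24 were used; per the labels these are polyA RNA libraries of oocytes. Per the submitters' processing notes, the build was mm9 and the tools included featureCounts 2.0.1, STAR 2.5.2b, HISAT2 2.1.0, fastp 0.21.0 and cutadapt 1.15. Their roles, their order and the strand setting are not stated there. The series' peak data were not used here. The counts deposited by the authors are whole numbers per gene, raw and with no normalization. The length column, in bases and deposited with the counts, is the exonic length. Without a strand setting, reads on bases shared with an opposite-strand gene cannot be assigned: 128 bases of Dhx30 with Gm10615 and 126 bases of Dhx57 with Morn2. In the table of Trim21 libraries, 33581 genes took a symbol from identical exons, 2844 from reference names and 885 stayed unnamed.

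Counts were scaled by TMM within each experiment and tested with edgeR 4.0.16 (R 4.3.3; filterByExpr with a minimum count of 10, glmQLFit, glmQLFTest) over all genes, with Benjamini-Hochberg adjustment and a threshold of 0.05. SE is the log2 fold change divided by the square root of F. Levels are TMM-scaled CPM, or RPKM per kb of exon. Sums of markers and levels in the libraries left out are CPM on library size alone. Levels of Socs5, Tmod2 and BC013529 were scaled by TMM over the 18 deep libraries together. Wilson intervals have a 95% level. The models were tested on simulated data. Libraries under 200000 counts were left out. Replicate pairs of a group had chi-square over degrees of freedom from 6.83 to 68.2, so no pair agreed within sampling noise. The alternatives were DESeq2 1.42.0, library size alone, no filter, the replicate number as a block, all 8 DRB libraries and each library left out; sko within each DRB state and DRB within each genotype were added after the data were seen.

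All 10 members were named, the 2 called genes with the smallest p in each list, and the 3 nearest profiles to Dhx36. Dhx34, Dhx35, Dhx40, Ptx3, Amh, Foxl2, Fst, Amhr2, Hsd17b1 and Emr1 were named after their values were seen. The members and the lists were chosen with earlier results of these data known. Markers of theca and stroma (10 genes) summed to 5.36 to 9.1 CPM in Dhx36_sko and 3.73 to 4.23 CPM in control and, in the DRB experiment, to 9.75 to 12.4 CPM in the sko libraries and 10.06 to 17.0 CPM in the c libraries.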

Additional observations from a re-analysis of the deposited data

Results flagged for a closer look

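The sko change of Dhx30, the helicase of mitochondrial ribosome assembly, differed between the growing and the DRB experiment by -0.82 on the log2 scale, tested as an interaction over 12 libraries (edgeR adjusted p = 0.0265). In growing oocytes its log2 fold change was -0.80, with 3 of 3 Dhx36_sko libraries below all controls, and in the DRB experiment it was 0.05, with overlapping libraries. Dhx30 stood at 4.70 ± 0.15 CPM in Dhx36_sko and 8.16 ± 1.26 CPM in control (SD, n = 3 each), and at 35.6 to 42.7 CPM in the 3 sko libraries and 28.7 to 44.9 CPM in the 3 c libraries of the DRB experiment. The 2 experiments also differ in the level of Dhx30 in their controls, which cannot be told apart from a difference in the sko change. They differ in the use of DRB as well, which the fit held as a term. Within the DRB experiment the log2 fold change of Dhx30 was 0.27 without DRB alone and -0.20 with DRB alone. Each of these has an arm of 1 library, so the part of DRB is only weakly separated.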

How the results depend on the processing

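Of 760 recomputed member values, 696 kept direction and side of the threshold, and 16 of the 22 calls held under every alternative run for them. The sign turned in 33 values, 0 of them called. Without cPDS replicate 3 or GV_C replicate 3 the count of members called with cPDS was 5, and over all left-out libraries it ran from 5 to 8. The share of all genes called in those fits is not given beside these counts. The count for the difference between the sko experiments was 2 with DESeq2, which added Dhx8 (-0.68, adjusted p = 0.00457), 0 with library size alone, and 0 to 2 with a library left out.

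Signs turned, all without a call, for sko in the DRB experiment without DRB alone (Dhx16, 0.24) and with DRB alone (Dhx30, -0.20, and Dhx38, -0.23). For DRB they turned for Dhx29 with all 8 libraries (-0.061), for Dhx57 in c alone (0.13), and in rhau_sko alone for Dhx29 (-0.040), Dhx8 (-0.060), Dhx16 (-0.11) and Dhx38 (-0.18). For the difference of the DRB change they turned for Dhx33 with library size alone (-0.019) and Dhx15 with all 8 libraries (0.039). With 1 library left out, sko in the DRB experiment ran from -0.20 to 0.27 for Dhx30, -0.36 to 0.24 for Dhx16 and -0.23 to 0.33 for Dhx38. The DRB change ran from -0.032 to 0.0495 for Dhx29, -0.052 to 0.33 for Dhx8, -0.10 to 0.49 for Dhx16, -0.18 to 0.38 for Dhx38 and -0.30 to 0.13 for Dhx57. The Trim21 change ran from -0.42 to 0.23 for Dhx9 and -0.18 to 0.11 for Dhx8. The difference between sko experiments ran from -0.58 to 0.05 for Dhx16, and that of the DRB change from -0.34 to 0.30 for Dhx33 and -0.20 to 0.25 for Dhx9, where leaving out c_DRB replicate 3 or rhau_sko replicate 5 left nothing to estimate. Dhx38 gained a call in growing sko without control replicate 1 (-0.72, adjusted p = 0.0369), and Dhx57 in the DRB experiment without rhau_sko_DRB replicate 8 (adjusted p = 0.0337). The cause was not tested.

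With library size alone the all-gene median was 0.21 rather than 0.02 in growing sko, and 0.25 rather than 0.08 for the difference between sko experiments. DRB called 2 genes, against 492 without the filter and 541 with DESeq2, and its difference between genotypes 6, against 272 and 57. The sko call count in the DRB experiment was 4070 with DRB alone and 3775 without DRB alone, both of 18178 genes in a fit with a term per group and an arm of 1 library, against 6043 of 16784 genes with DRB as a covariate.

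Replicate numbers 1 to 3 recur in the cPDS and Trim21 experiments, but same-numbered libraries did not deviate together (r from -0.059 to -0.033 and from -0.049 to 0.091). With the replicate block 7 members were called with cPDS, Dhx33 being lost (0.35, adjusted p = 0.0566), and 1 with Trim21. The share of all genes called with the block is not given beside these counts. Precision was set by counts as low as 61 for Dhx36 and 52 for Dhx9 and Dhx33 in Trim21 libraries, and by groups of 1 to 3 libraries. Dhx33 also had 52 counts in control replicate 2 of that experiment.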
